A study of Mus musculus with 10 samples.

Results

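Cultured mouse cortical neurons lacking ATF4 were compared with wildtype neurons that had received the same vehicle, so that the difference between the genotypes was read in the absence of arsenite. The comparison used 4 of the 10 arrays of the series, 2 of ATF4-deficient and 2 of wildtype neurons, chosen by the genotype and treatment in their titles. All neurons came from the cortex of embryos at embryonic day 14.5 to 15.5, were grown in Neurobasal medium with B27, Glutamax and antibiotics, and were treated on day 7 in vitro for 12 hours. The other 6 arrays held neurons given 5 μM sodium arsenite for the same time, 4 wildtype and 2 ATF4-deficient, and entered here as a second reading of the genotype difference. The titles number the samples as biological replicates. Which part of Atf4 was removed, the strain, and whether replicates came from different embryos or cultures are not given, and if they shared a culture the p-values measure only technical spread.

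ATF4 is a transcription factor of the bZIP family and the common effector of the integrated stress response. In that response, kinases that sense misfolded protein, amino acid shortage, haem shortage or double-stranded RNA phosphorylate the initiation factor eIF2α, which lowers translation in general and favours translation of the Atf4 message. ATF4 then pairs with C/EBP and other bZIP proteins and binds composite promoter elements of genes for amino acid uptake, amino acid synthesis and tRNA charging. ATF4 was also named CREB2, after early work in which it opposed transcription driven by CREB, the factor that binds the cyclic AMP response element in activity-regulated neuronal genes.

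The values were log2 expression levels from Affymetrix arrays, 1 per gene for 22180 genes. The level of dim signal was taken from 1390 olfactory and vomeronasal receptor genes, whose median was 4.52 and whose 90th percentile was 6.64. Correlations across genes were 0.993 between the wildtype vehicle arrays, 0.993 between the ATF4-deficient vehicle arrays, and 0.987 to 0.991 between genotypes. The median absolute difference between replicates was 0.11 in wildtype and 0.12 in ATF4-deficient neurons, and the median absolute difference between the genotype means was 0.11. The replicate figures compare single arrays and the genotype figure compares means of 2 arrays, so they are unlike measures. Xist, the RNA of the inactive X chromosome, was high on 1 array of each genotype (11.89 on wildtype replicate 2 and 11.75 on ATF4-deficient replicate 1) and low on the other (7.88 and 6.26). Beside the tissue label, pan-neuronal transcripts such as Stmn2 (12.57 to 12.85 on the 4 arrays) and Map2 (12.13 to 12.26) were among the bright ones, and the mean over 12 neuronal markers ranged from 10.52 to 10.59.

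Under vehicle, 96 genes passed an adjusted p of 0.05 (limma, Benjamini-Hochberg over all 22180 genes), which is 0.433% of the genes tested. Of these, 40 were higher in ATF4-deficient neurons (0.18%) and 56 were lower (0.252%). More than 2-fold differences were found for 13 of the higher and 14 of the lower genes, and the smallest difference among all 96 was 0.51 on the log2 scale. The highest array of the lower group lay below the lowest array of the other group for each of the 96, an order that 21.15% of all genes showed with ATF4-deficient arrays above and 21.35% with ATF4-deficient arrays below. Among the higher genes, 4 were at the dim level in both genotypes and 13 in at least 1 genotype, against 0 and 5 of the lower genes. The number of genes past the threshold rested on the arrays used for the spread: with the 4 vehicle arrays alone limma gave 0 genes (2619 at an unadjusted p under 0.05, against 2420 in the fit of all 10 arrays). With all probe sets of the array in the test, unnamed ones included, 1 passed. The count was 0 without wildtype replicate 2, 0 without ATF4-deficient replicate 2, 20 without wildtype replicate 1, 56 without ATF4-deficient replicate 1, and 54 and 52 without wildtype arsenite replicates 1 and 2. All 96 kept their direction in each of these fits, but this could not have come out otherwise. The vehicle arrays of these genes do not overlap, so leaving out arrays cannot reverse a difference.

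**Figure D1:**
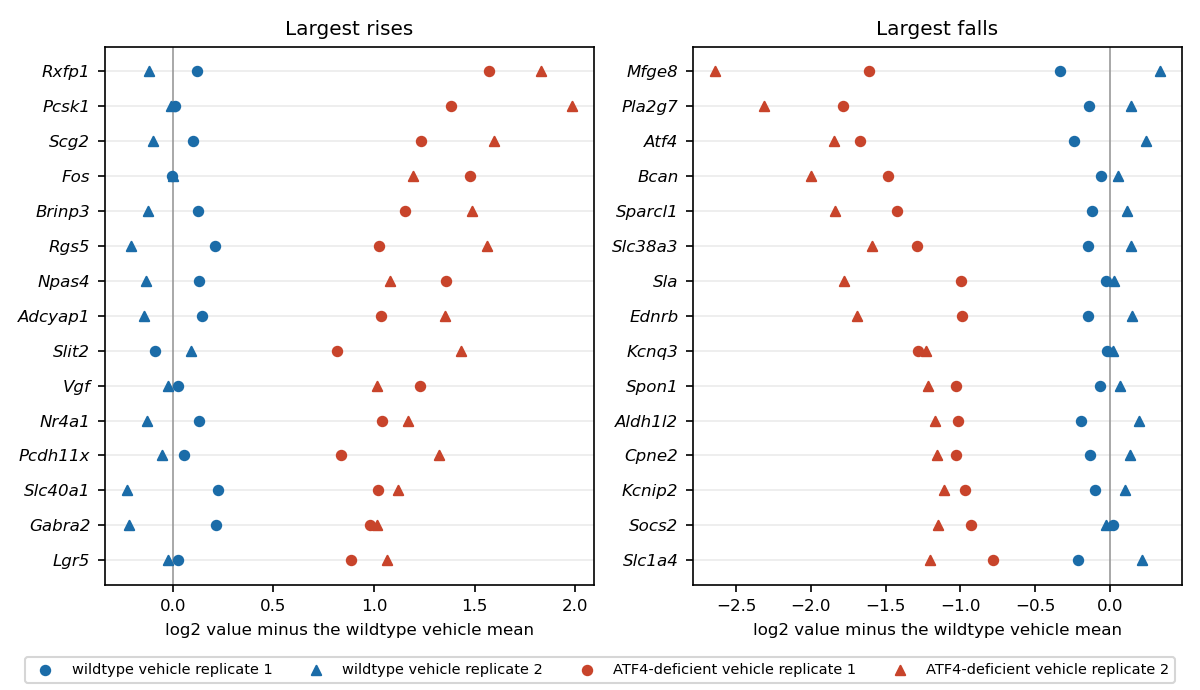
Log2 value of each vehicle array minus the wildtype vehicle mean, for the 15 genes with the largest rises (left) and the 15 with the largest falls (right) among named genes past an adjusted p of 0.05; circles are replicate 1, triangles replicate 2, blue wildtype and red ATF4-deficient. The red and blue points do not overlap for any gene, and the gap between the red points is wide for Mfge8 (8.74 and 7.71) and narrow for Kcnq3 (9.09 and 9.15).

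Atf4 itself read 9.09 and 9.56 on the wildtype vehicle arrays and 7.65 and 7.48 on the ATF4-deficient ones. The deficient arrays were thus low but still above the dim reference, and the labels do not say whether the probe set lies inside the removed part. Atf4 fell by 1.76 (SE 0.18, adjusted p 0.00876), a 3.38-fold lower signal. Without wildtype replicate 2 the difference was −1.52 (adjusted p 0.0792) and without ATF4-deficient replicate 2 it was −1.67 (adjusted p 0.170). With the 4 vehicle arrays alone the adjusted p was 0.199.

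The genes next to Atf4 on chromosome 15 were read in the order of the GRCm38.p6 gene table. Rps19bp1, the next measured gene and the source of a ribosomal protein S19 binding protein that activates the deacetylase SIRT1, read 7.79 and 7.61 in wildtype and 6.89 and 6.59 in ATF4-deficient neurons. It fell by 0.96 (SE 0.12, adjusted p 0.0138), and its difference on the arsenite arrays was −0.73 (adjusted p 0.0165). Cacna1i, the gene after it and the source of a T-type calcium channel, read 8.05 and 8.04 against 7.55 and 7.51 and fell by 0.51 (adjusted p 0.0450), whereas its arsenite difference was 0.37 (adjusted p 0.102). The 8 other neighbours, Snord43, Syngr1, Tab1, Mgat3 and Mief1 on one side and Enthd1, Grap2 and Fam83f on the other, differed by −0.20 to 0.01 and did not pass. Chromosome 15 held 10 of the 96 genes, 1.19% of its 839 measured genes, the highest share of any chromosome. Beside Atf4, Rps19bp1 and Cacna1i these were Kcnv1, Kcnq3, Sla, Adgrb1, Ddn and Kcnh3, which were lower, and Nr4a1, which was higher. They lay 177 to 291 measured genes away from Atf4. Whether the genotypes differ in flanking sequence was not tested.

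**Figure D2:**
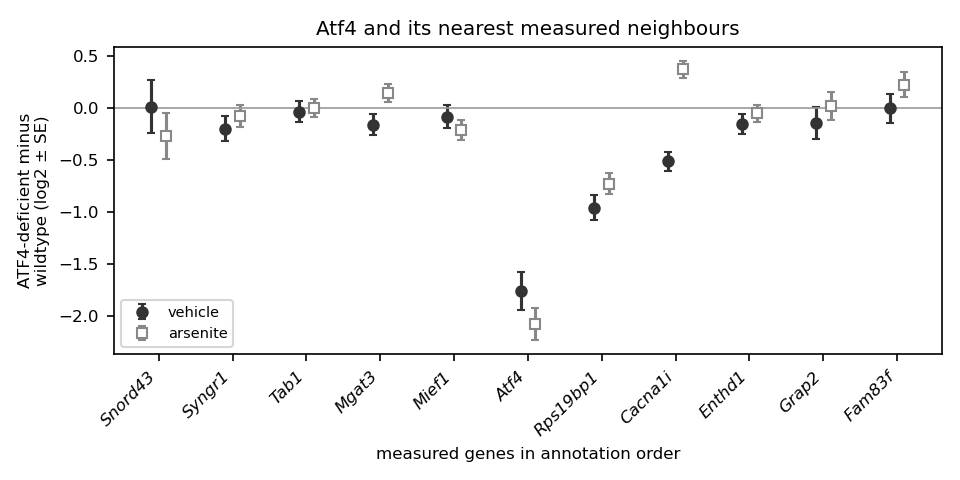
Difference between ATF4-deficient and wildtype neurons (log2, ± SE of the limma fit) for Atf4 and the 5 nearest measured genes on either side, under vehicle (filled circles) and under arsenite (open squares), in annotation order. Atf4 (−1.76 and −2.08) and Rps19bp1 (−0.96 and −0.73) are below 0 in both treatments, and Cacna1i changes side (−0.51 and 0.37).

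Genes of amino acid supply are known targets of ATF4. Their counts under vehicle are given beside those over all genes, of which 0.252% were called lower and 0.18% higher. Of the 9 measured amino acid transporters 0 were called higher and 1 lower, with a median difference of −0.76, against a median of 0.004 over all genes. Of the 14 genes of amino acid synthesis and one-carbon metabolism 1 was lower (median −0.39), and of the 11 cytosolic tRNA synthetases and their exporter 0 passed (median −0.31), although all 11 differences were negative. Of the 16 regulators of the integrated stress response 0 passed in either direction (median −0.15). The ATF4-deficient arrays lay below the wildtype arrays for 6 transporters, 9 synthesis genes, 8 tRNA synthetases and 5 regulators, against 21.35% of all genes. They lay above for 0, 0, 0 and 2, against 21.15%.

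The transporter past the threshold was Slc1a4 (ASCT1), which exchanges alanine, serine and cysteine. It read 9.62 and 10.05 in wildtype and 9.05 and 8.63 in ATF4-deficient neurons and fell by 0.99 (SE 0.17, adjusted p 0.0402). With 1 array left out its difference was −1.21 to −0.78. Its promoter window is printed because it was the only gene lower in ATF4-deficient neurons whose window held TGATGNAA, the core of the element bound by C/EBP and ATF4 pairs. The window, from RefSeq on GRCm38.p6, covers chr11:20332694-20332963 on the minus strand, from 250 bases before the annotated start to 20 after it. Capitals mark the match, which is on the opposite strand and begins 4 bases before the start.
Slc1a4: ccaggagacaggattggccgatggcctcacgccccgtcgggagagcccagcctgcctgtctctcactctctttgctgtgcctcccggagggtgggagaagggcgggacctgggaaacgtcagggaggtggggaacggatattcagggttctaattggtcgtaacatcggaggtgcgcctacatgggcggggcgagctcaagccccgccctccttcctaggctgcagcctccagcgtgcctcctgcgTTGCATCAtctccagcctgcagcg
Searched on both strands of windows from 250 bases before to 50 after the start, TGATGNAA occurred in 3.92% of the 16990 tested genes that had a window. It occurred in 1 of 39 windows of genes lower in ATF4-deficient neurons (2.56%) and in 3 of 33 windows of higher genes (9.09%, Brinp3, Ntng1 and Bdnf). The other lower genes, Aldh1l2 and Slc38a3 among them, had no window and were not searched. In the lists, 7 of 15 stress response regulators (46.7%), 4 of 7 tRNA synthetases (57.1%), 2 of 5 transporters (40.0%) and 2 of 12 synthesis genes (16.7%) held TGATGNAA. TGATGCAA, a case of the same element, was in 0.895% of the tested genes and, among genes past the threshold, in Slc1a4. A match describes letters and is not a measured binding site.

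Slc7a11, the light chain of the cystine and glutamate exchanger, read 6.13 and 7.04 in wildtype and 5.52 and 4.82 in ATF4-deficient neurons (difference −1.42, adjusted p 0.0624). Slc7a5, the light chain of the large neutral amino acid transporter, read 10.18 and 10.98 against 9.70 and 9.14 (−1.16, adjusted p 0.0645). For both, no wildtype array was as low as an ATF4-deficient one, but the spread within each genotype was large. The same held for Slc7a1, the arginine and lysine transporter (−1.01, adjusted p 0.0783), and Slc7a3 (−0.76, adjusted p 0.317). It also held for Slc3a2, the heavy chain that joins the light chains of Slc7a11 and Slc7a5 (−0.52, adjusted p 0.184). The glutamine and neutral amino acid carriers Slc38a2, Slc38a1 and Slc1a5 differed by −0.02, 0.03 and 0.11.

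Aldh1l2, the mitochondrial enzyme that oxidises 10-formyl-tetrahydrofolate, read 8.10 and 8.49 in wildtype and 7.28 and 7.13 in ATF4-deficient neurons. It fell by 1.09 (SE 0.15, adjusted p 0.0218). The proline synthesis gene Aldh18a1 (−0.71, adjusted p 0.140) and the serine and glycine genes Shmt2 (−0.71, adjusted p 0.340) and Psat1 (−0.58, adjusted p 0.486) did not pass. Asns, the asparagine synthetase gene often used as a readout of ATF4, read 9.62 and 9.96 against 9.54 and 9.35 (−0.35, adjusted p 0.632). Among the synthetases the largest differences were those of Cars (−0.70, adjusted p 0.0762), Yars (−0.58, adjusted p 0.151) and Tars (−0.54, adjusted p 0.393). Slc38a3 (SNAT3), a glutamine transporter known from astrocytes that was not in the list, read 8.92 and 9.21 against 7.77 and 7.47 and fell by 1.44 (SE 0.22, adjusted p 0.0236).

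The regulators were split. Eif4ebp1, a translation repressor, read 7.30 and 8.44 in wildtype and 7.39 and 6.51 in ATF4-deficient neurons (−0.92, adjusted p 0.370), so that the arrays overlapped. Chac1, which degrades glutathione (−0.51), Ddit4 (−0.43) and Sesn2 (−0.39), which restrain mTORC1, had the next largest negative differences, with adjusted p of 0.390 to 0.676. Ddit3, the gene of CHOP, and Trib3 differed by 0.02 and 0.03, and Atf3, Ppp1r15a and Cebpb by 0.16, 0.20 and 0.20.

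The replicate arrays of a genotype differed in these lists. Wildtype replicate 2 was above wildtype replicate 1 for 14 of the 16 regulators, 13 of the 14 synthesis genes and 8 of the 9 transporters, against 9657 of all 22180 genes. ATF4-deficient replicate 2 was below replicate 1 for 11, 11 and 6 of them, against 11577 of all genes. The mean over the transporters was 8.69 and 9.18 in wildtype and 8.44 and 8.16 in ATF4-deficient neurons, and that over the regulators was 7.51 and 7.84 against 7.58 and 7.43. Without wildtype replicate 2 the medians were −0.30 for transporters, −0.16 for synthesis genes, −0.17 for tRNA synthetases and 0.02 for regulators. Without wildtype replicate 1 they were −1.21, −0.53, −0.45 and −0.25, and without ATF4-deficient replicate 2 the synthesis genes had −0.25 and the regulators −0.09.

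**Figure D3:**
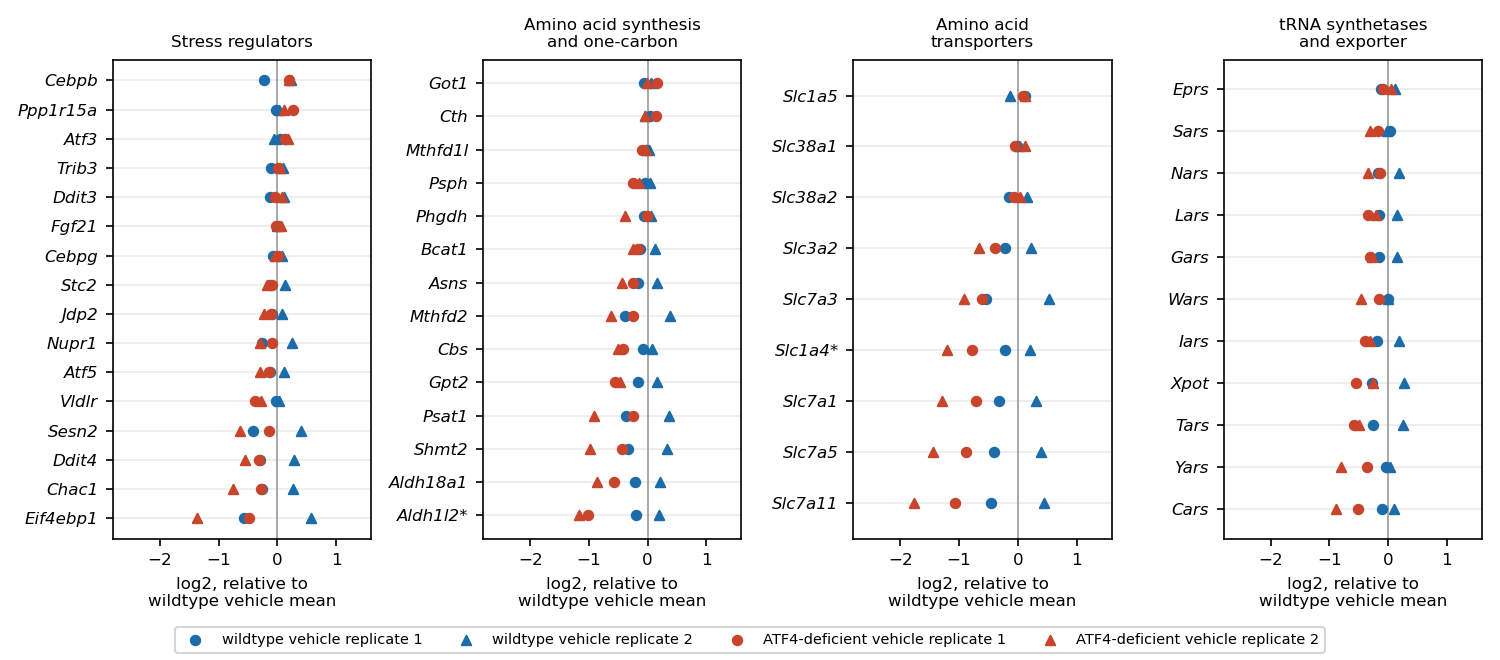
Log2 value of each vehicle array relative to the wildtype vehicle mean for every measured gene of 4 lists (stress response regulators, amino acid synthesis and one-carbon metabolism, amino acid transporters, tRNA synthetases and their exporter); colours and symbols give genotype and replicate, and an asterisk marks an adjusted p under 0.05. Blue and red circles lie close together for many genes, as for Eif4ebp1 (7.30 and 7.39), while the triangles are far apart (8.44 and 6.51).

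On the 6 arsenite arrays, none of which enters the vehicle difference, the same lists read lower in ATF4-deficient neurons: 6 of 9 transporters (median −1.45), 8 of 14 synthesis genes (median −0.84), 7 of 11 tRNA synthetases (median −0.77) and 6 of 16 regulators (median −0.48) passed, where 0.343% of all genes did. No gene passed a test of the difference between the treatments.

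Of the 5 largest falls past the threshold, 4 were in genes that astrocytes are known to express, Mfge8, Pla2g7, Bcan and Sparcl1. Of 23 measured genes for proteins that astrocytes secrete or place in the matrix, 7 were called lower and 0 higher, with a median of −0.53. Of 15 astrocyte markers 1 was lower and 0 higher (median −0.84), and of 22 genes for astrocyte uptake, metabolism and phagocytosis 0 passed (median −0.43). Over all genes 0.252% were called lower and 0.18% higher. The ATF4-deficient arrays lay below the wildtype arrays for 13 of the 15 markers, 18 of the 23 secreted and matrix genes and 16 of the 22 uptake genes, against 21.35% of all genes. Such falls in the RNA of a whole culture do not tell fewer cells of a type from less RNA per cell.

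Mfge8, a secreted bridge between phosphatidylserine on dying cells and phagocytes, read 10.02 and 10.68 in wildtype and 8.74 and 7.71 in ATF4-deficient neurons. It fell by 2.13 (SE 0.38, adjusted p 0.0402), the largest fall measured among named genes, with ATF4-deficient replicate 2 well below replicate 1. Pla2g7, which encodes an enzyme that inactivates platelet-activating factor, read 7.61 and 7.89 against 5.96 and 5.43, both at the dim level, and fell by 2.05 (SE 0.29, adjusted p 0.0218). Bcan, the gene of the perineuronal proteoglycan brevican, read 8.20 and 8.31 against 6.77 and 6.26, near the dim level, and fell by 1.74 (SE 0.31, adjusted p 0.0402). Sparcl1, which encodes the synapse-promoting protein hevin, read 11.60 and 11.84 against 10.29 and 9.88 and fell by 1.63 (SE 0.26, adjusted p 0.0296). In each of these the 2 wildtype arrays lay closer together than the 2 ATF4-deficient ones.

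The other called genes of the secreted and matrix list were Ptprz1, a receptor phosphatase shed as phosphacan (−0.98, adjusted p 0.0225), Timp3, a metalloproteinase inhibitor (−0.93, adjusted p 0.0370), and Gpc4, a glypican that promotes synapse formation (−0.86, adjusted p 0.0138). Ednrb, an endothelin receptor of astrocytes, read 9.83 and 10.13 against 8.99 and 8.29 and fell by 1.34 (SE 0.24, adjusted p 0.0434). Gfap, the intermediate filament of astrocytes, read 7.83 and 7.95 against 7.18 and 7.22 and fell by 0.69 (SE 0.13, adjusted p 0.0473). It was the only marker past the threshold, and larger differences of other markers came with a wider gap between replicates. Slc1a3, the glutamate transporter GLAST, read 9.84 and 10.05 against 8.70 and 7.52 (−1.83, adjusted p 0.0817). The water channel gene Aqp4 read 8.59 and 8.92 against 7.49 and 6.93 (−1.55, adjusted p 0.0570). Aldoc (−1.33, adjusted p 0.0570) and the glial transcription factor gene Sox9 (−0.80, adjusted p 0.0550) were near the threshold, and Apoe had −1.08 (adjusted p 0.0732). The glutamate transporter Slc1a2 (0.14, adjusted p 0.811) and the connexin Gjb6 (0.26, adjusted p 0.357) did not share that sign.

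The mean over the 15 markers was 8.32 and 8.55 in wildtype vehicle and 7.73 and 7.36 in ATF4-deficient vehicle arrays, and under arsenite it was 7.72 to 8.29 in wildtype and 7.66 and 7.27 in ATF4-deficient neurons. The median over the markers was −0.71 without ATF4-deficient replicate 2 and −1.09 without replicate 1, and for the uptake genes it was −0.23 without ATF4-deficient replicate 2. Radial glia and progenitor markers had a median of −0.20 with 0 of 13 past the threshold, against 0.433% of all genes. The ATF4-deficient arrays lay below wildtype for 10 of these and above for 1, against 21.35% and 21.15% of all genes. Fabp7, which radial glia and young astrocytes express, had the largest difference of them (−0.91, adjusted p 0.0570). Of 25 genes of the BMP, Notch and STAT routes that favour glial fate 0 passed (median −0.17), and 17 of them had ATF4-deficient arrays below wildtype, against 21.35% of all genes. Of 12 neuronal markers 0 passed. Their differences went both ways, from −0.49 for Rbfox3 to 0.46 for Nefl with a median of −0.07. The ATF4-deficient arrays lay above the wildtype arrays for 3 of them and below for 5, against 21.15% and 21.35% of all genes. Of 11 excitatory neuron markers 0 passed (median −0.13), with 3 differences positive and 8 negative. ATF4-deficient arrays lay above wildtype for 1 of these and below for 5. Of 10 inhibitory neuron markers 2 differences were positive and 8 negative, with ATF4-deficient arrays above wildtype for 0 and below for 4. The part that the astrocyte-associated genes play in the other differences was not tested.

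Among the rises were genes that neuronal activity induces. Of 20 activity-induced transcription factors 4 were called higher and 0 lower (median 0.23), of 22 activity-induced effectors 1 was higher (median 0.34), and of 15 dense-core granule proteins and prohormone processing enzymes 3 were higher (median 0.30), where 0.18% of all genes were. ATF4-deficient arrays lay above wildtype arrays for 12, 16 and 9 of them and below for 3, 1 and 3, against 21.15% and 21.35% of all genes.

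Fos, the gene of the AP-1 subunit used to mark active neurons, read 7.02 and 7.03 in wildtype and 8.50 and 8.22 in ATF4-deficient neurons. It rose by 1.34 (SE 0.21, adjusted p 0.0284). Npas4, a calcium-dependent transcription factor of neurons, read 7.50 and 7.23 against 8.72 and 8.45 and rose by 1.22 (SE 0.18, adjusted p 0.0236). The orphan nuclear receptor Nr4a1 read 8.03 and 7.77 against 8.94 and 9.06 and rose by 1.10 (SE 0.13, adjusted p 0.0110). Its relative Nr4a2 rose by 0.90 (adjusted p 0.0284), and Nr4a3, with 9.99 and 10.13 against 10.74 and 11.53, did not pass (1.07, adjusted p 0.0826). The rises did not extend to all members: Egr1 differed by −0.34 (adjusted p 0.649), Egr3 by −0.50 (adjusted p 0.188) and Junb by 0.04 (adjusted p 0.944). Among the effectors Bdnf, the neurotrophin, read 6.96 and 6.88 against 7.51 and 7.52 and rose by 0.60 (SE 0.09, adjusted p 0.0250). Rgs2 (0.78, adjusted p 0.0570), Spry2 (0.57, adjusted p 0.0701) and Dusp1 (0.57, adjusted p 0.0897) were close to the threshold, and Arc, the dendritic immediate early gene, differed by 0.16 (adjusted p 0.712).

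Pcsk1, which encodes the proprotein convertase that cleaves prohormones in granules, read 6.619 and 6.596 in wildtype and 7.99 and 8.59 in ATF4-deficient neurons. It rose by 1.68 (SE 0.18, adjusted p 0.0110), from the dim level in wildtype. Scg2, the granin secretogranin II, read 9.59 and 9.39 against 10.73 and 11.09 and rose by 1.42 (SE 0.16, adjusted p 0.0110). Vgf, the gene of another granin-like precursor, read 7.85 and 7.80 against 9.05 and 8.84 and rose by 1.12 (SE 0.17, adjusted p 0.0247). The rest of the list was uneven, from Pam, the amidating enzyme (0.66, adjusted p 0.174), and Chgb (0.43, adjusted p 0.269) to Chga (−0.05, adjusted p 0.948), Cpe (−0.10, adjusted p 0.819) and Pcsk1n, an inhibitor of the Pcsk1 product (−0.60, adjusted p 0.429). The median of the list was 0.19 without ATF4-deficient replicate 2.

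Of 18 neuropeptide genes 1 was higher, against 0.18% of all genes. This was Adcyap1, the precursor of PACAP, a peptide that raises cyclic AMP, which read 7.57 and 7.28 against 8.46 and 8.78 and rose by 1.19 (SE 0.14, adjusted p 0.0112). Cort (0.99, adjusted p 0.126), Pnoc (0.79, adjusted p 0.185) and Crh (0.57, adjusted p 0.151) lay above 0 without passing, and Nts (−0.90, adjusted p 0.0880), Npy (−0.70, adjusted p 0.484) and Cck (−0.69, adjusted p 0.415) below it. Kitl, the ligand of the receptor Kit, rose by 0.70 (adjusted p 0.0218).

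The promoter windows of 3 rising genes are shown because they hold a cyclic AMP response element, TGACGTCA, or a variant that shares 7 of its bases, GTGACGTC. All are RefSeq windows on GRCm38.p6, from 250 bases before the start to 20 after it, in the direction of the gene with the matches in capitals. Scg2 lies on the minus strand at chr1:79440007-79440276, Pcsk1 on the plus strand at chr13:75089607-75089876 and Npas4 on the minus strand at chr19:4989952-4990221.
Scg2: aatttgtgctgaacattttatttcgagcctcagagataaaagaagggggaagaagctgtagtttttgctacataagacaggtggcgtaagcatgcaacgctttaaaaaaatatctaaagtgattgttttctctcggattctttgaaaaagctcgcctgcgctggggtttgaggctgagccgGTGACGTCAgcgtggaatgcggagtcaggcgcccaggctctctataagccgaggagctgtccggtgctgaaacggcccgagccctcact
Pcsk1: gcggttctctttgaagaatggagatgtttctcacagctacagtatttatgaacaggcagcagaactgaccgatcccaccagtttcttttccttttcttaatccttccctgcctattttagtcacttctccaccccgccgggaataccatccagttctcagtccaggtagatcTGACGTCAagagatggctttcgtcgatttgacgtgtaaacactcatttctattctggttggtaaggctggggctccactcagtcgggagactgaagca
Npas4: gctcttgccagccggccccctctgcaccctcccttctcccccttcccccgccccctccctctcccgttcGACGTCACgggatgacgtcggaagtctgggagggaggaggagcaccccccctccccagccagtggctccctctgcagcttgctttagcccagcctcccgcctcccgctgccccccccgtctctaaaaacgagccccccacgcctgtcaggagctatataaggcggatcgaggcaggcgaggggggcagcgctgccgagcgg
The matches began 69 bases before the start in Scg2, where both motifs overlap, 78 before it in Pcsk1, and 181 before it in Npas4, where GTGACGTC is on the opposite strand. TGACGTCA was found in 2 of 33 windows of higher genes (6.06%), 1 of 39 of lower genes (2.56%, Nr2e1) and 2.65% of all tested genes with a window. GTGACGTC was found in 2 of 33 (6.06%), 0 of 39 and 2.76%. In the dense-core granule list TGACGTCA was in 3 of 13 windows (23.1%), those of Chgb, Scg2 and Pcsk1. Among activity-induced transcription factors it was in 1 of 15 (6.67%, Maff), and among the effectors in 2 of 14 (14.3%, Plk2 and Dusp1). Chgb, Maff, Plk2 and Dusp1 did not pass the threshold. These shares are counts of letters in few genes.

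Genes of receptors for secreted ligands were on both sides of the comparison. Rxfp1, the relaxin receptor, read 6.47 and 6.23 in wildtype and 7.92 and 8.18 in ATF4-deficient neurons. It rose by 1.70 (SE 0.14, adjusted p 0.00176), the lowest adjusted p of the comparison, but with both wildtype arrays at the dim level the size of the rise is not exact. Hcrtr2, an orexin receptor, read 7.67 and 7.20 against 8.26 and 8.55 and rose by 0.97 (adjusted p 0.0250). Gfra1, a receptor for GDNF, rose by 0.73 (adjusted p 0.0304). Lgr5, an R-spondin receptor, read 6.12 and 6.07 against 6.98 and 7.16 and rose by 0.98 (SE 0.12, adjusted p 0.0110) from the dim level in wildtype, but its second, dimmer probe set differed by −0.12. Lower were the endothelin receptor gene Ednrb, given above, the ATP and ADP receptor gene P2ry1 (−0.61, adjusted p 0.0401) and the semaphorin receptor gene Plxnc1 (−0.88, adjusted p 0.0225). In the list of 18 neuropeptide and relaxin receptors 1 was higher and 0 lower, against 0.18% and 0.252% of all genes, with a median of 0.04. The ATF4-deficient arrays lay above the wildtype arrays for 6 and below for 6, against 21.15% and 21.35% of all genes.

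Other rises had various roles. Brinp3, a neural gene induced by BMP and retinoic acid, read 9.03 and 8.79 against 10.07 and 10.40 and rose by 1.32 (SE 0.15, adjusted p 0.0110). Rgs5, a regulator of G protein signalling, read 6.50 and 6.08 against 7.32 and 7.85 and rose by 1.29 (SE 0.21, adjusted p 0.0344), with 0.24 in its dimmer probe set. Slc40a1, the gene of the iron exporter ferroportin, read 6.20 and 5.75 against 6.99 and 7.09 and rose by 1.07 (SE 0.14, adjusted p 0.0163). The wildtype arrays of Rgs5 and Slc40a1 were at the dim level, so the sizes of these rises are not exact. Rgs5 also marks pericytes. Of 8 pericyte and smooth muscle markers 1 passed, Rgs5, against 0.433% of all genes, and 4 differences were positive and 4 negative (median 0.01). Their part in the rise of Rgs5 was not tested.

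Axon guidance and adhesion genes appeared on both sides of the comparison. Slit2, the ligand of Robo receptors, read 9.01 and 9.19 against 9.92 and 10.53 and rose by 1.12 (SE 0.17, adjusted p 0.0236). The protocadherin Pcdh11x read 8.60 and 8.49 against 9.38 and 9.87 and rose by 1.08 (SE 0.19, adjusted p 0.0402), and the netrin receptor gene Dcc (0.80, adjusted p 0.0402) and Ntng1 (0.88, adjusted p 0.0236) rose as well. Lower was Spon1, the matrix protein F-spondin, which read 7.98 and 8.12 against 7.02 and 6.84 (−1.12, SE 0.16, adjusted p 0.0225). Draxin, a guidance protein that binds DCC, fell by 0.79 (adjusted p 0.0401), and so did Ndnf, a secreted neurotrophic factor (0.79, adjusted p 0.0218). The adhesion molecules Ptprm (−0.81), Cdh4 (−0.89), Ajap1 (−0.68), Adgrb1 (−0.60) and Adgrb2 (−0.72) were also lower, with adjusted p of 0.0218 to 0.0402, although the dimmer probe set of Cdh4 differed by −0.19.

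Ion channel subunits were found among the falls and the rises. Of 26 genes listed as voltage-gated channels 1 was higher and 2 were lower (median −0.27), against 0.18% and 0.252% of all genes. The ATF4-deficient arrays lay below the wildtype arrays for 16 and above for 4, against 21.35% and 21.15% of all genes. Kcnq3, a subunit of the M-current potassium channel, read 10.35 and 10.39 in wildtype and 9.09 and 9.15 in ATF4-deficient neurons. It fell by 1.26 (SE 0.16, adjusted p 0.0160), with the narrowest replicate gaps among the large falls. Kcnip2, an auxiliary subunit of A-type potassium channels, read 7.43 and 7.63 against 6.55 and 6.42, at the dim level, and fell by 1.04 (SE 0.19, adjusted p 0.0482). Outside the list, Kcnh3 (−0.97, adjusted p 0.0236), the calcium-activated channel gene Kcnn2 (−0.75, adjusted p 0.0250) and Kcnv1 (−0.59, adjusted p 0.0473) were lower. Higher were Gabra2, a GABA-A receptor subunit, which read 9.66 and 9.23 against 10.43 and 10.46 and rose by 1.00 (SE 0.15, adjusted p 0.0236), and Glra3, a glycine receptor subunit (0.61, adjusted p 0.0402). Kcnj3, the inward rectifier GIRK1 and the higher gene of the list, rose by 0.70 (adjusted p 0.0473), with −0.32 in its dimmer probe set. Averaged over its probe sets, the limma difference was 0.19 (adjusted p 0.541).

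Of 22 synaptic vesicle genes 1 was lower, Syn2, the synapsin II gene, which read 10.23 and 10.50 against 9.59 and 9.45 (−0.85, SE 0.12, adjusted p 0.0218). The list median was −0.13, and 0.252% of all genes were called lower. Rph3a and Doc2b, calcium sensors of exocytosis, fell by 0.81 and 0.86 (adjusted p 0.0402 and 0.0473), and Ddn, the dendritic protein dendrin, by 0.65 (adjusted p 0.0402). None of 19 postsynaptic scaffold and adhesion genes passed (median −0.27), and 12 of them had ATF4-deficient arrays below wildtype, against 21.35% of all genes. Of 21 ionotropic glutamate and GABA-A receptor genes Gabra2 alone was past the threshold (median −0.08), against 0.433% of all genes.

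Of the remaining large falls, Sla, an adaptor that dampens receptor kinase signalling, read 9.41 and 9.46 against 8.43 and 7.65 and fell by 1.39 (SE 0.20, adjusted p 0.0218). Cpne2, a calcium-dependent membrane-binding copine, read 9.97 and 10.24 against 9.08 and 8.95 and fell by 1.09 (SE 0.14, adjusted p 0.0160). Socs2, an inhibitor of cytokine and growth hormone signalling, read 8.18 and 8.13 against 7.23 and 7.00 and fell by 1.04 (SE 0.15, adjusted p 0.0218), with −0.43 in its other probe set. Egln3, an oxygen-sensing prolyl hydroxylase gene, fell by 0.98 (adjusted p 0.0218). The nuclear factors Etv6 (−0.85), Lmo4 (−0.91), Rxrg (−0.71), Rara (−0.51) and Nr2e1 (−0.56) were lower with adjusted p of 0.0218 to 0.0400.

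The gene of the kinase PERK, Eif2ak3, acts upstream of ATF4 in the endoplasmic reticulum branch of the response. It read 7.73 and 7.91 in wildtype and 8.32 and 8.62 in ATF4-deficient neurons and rose by 0.65 (SE 0.12, adjusted p 0.0450). Chaperones of the endoplasmic reticulum had a median of 0.30 with 0 of 17 past the threshold under vehicle, and for 12 of them the ATF4-deficient arrays were above the wildtype arrays, against 21.15% of all genes. Hspa5, the gene of the chaperone BiP, read 9.39 and 9.17 against 9.63 and 9.73 (0.40, adjusted p 0.163), and Hsp90b1, that of GRP94, read 11.24 and 11.09 against 11.48 and 11.67 (0.42, adjusted p 0.125). Under arsenite both passed, with differences of 0.53 (adjusted p 0.0479) and 0.69 (adjusted p 0.00918). There the list had 3 higher and 1 lower, against 0.343% of all genes past the threshold, and a median of 0.45.

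**Figure D4:**
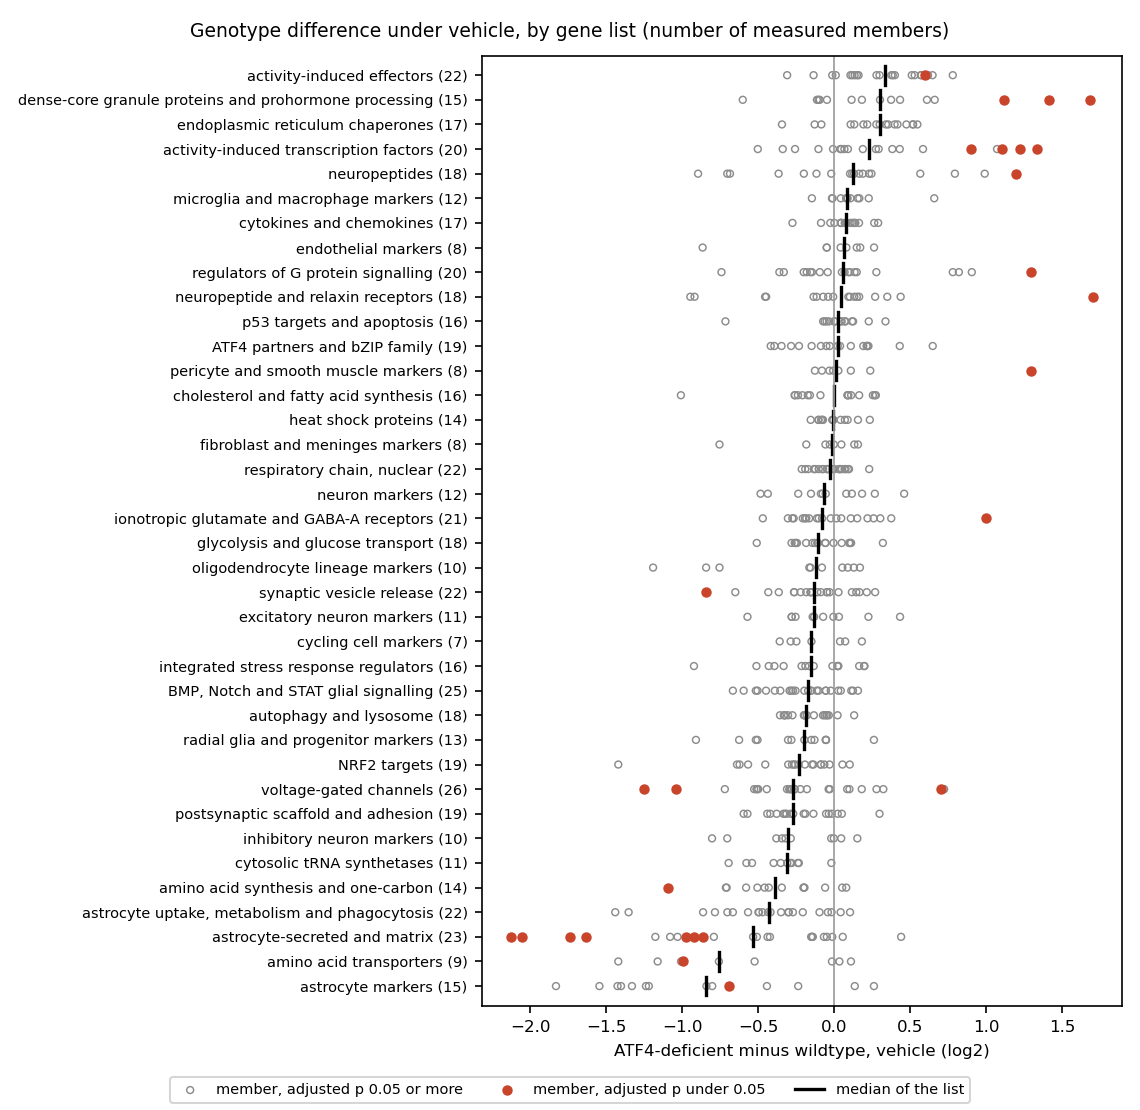
Difference between ATF4-deficient and wildtype vehicle arrays (log2) for every measured member of the 38 gene lists, ordered by list median (black bar); filled red points passed an adjusted p of 0.05 and open points did not. Activity-induced effectors (0.34) and dense-core granule genes (0.30) are at the top, and amino acid transporters (−0.76) and astrocyte markers (−0.84) at the bottom.

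The genotype difference was read again on the 6 arsenite arrays, which share no array with the vehicle comparison but share its estimate of spread. Xist read 8.09, 6.95, 6.56 and 11.88 on the wildtype arsenite arrays and 12.26 and 6.70 on the ATF4-deficient ones. On the vehicle arrays it read 7.88 and 11.89 in wildtype and 11.75 and 6.26 in ATF4-deficient neurons. Whether both treatments drew on the same embryos or cultures is not given and was not tested. The 2 readings may therefore not come from independent samples. Of the 40 genes higher under vehicle 33 were also positive under arsenite (82.5%), and of the 56 lower genes 54 were also negative (96.43%). Over all genes, 64.3% of those with a positive and 56.2% of those with a negative vehicle difference kept their sign. The median difference of the higher genes was 0.85 under vehicle and 0.26 under arsenite, and that of the lower genes was −0.83 and −0.36. Genes chosen for a large difference are expected to show a smaller one in a second reading.

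Under arsenite 76 genes passed (0.343%), 16 higher and 60 lower, and 12 genes passed in both treatments, which is 12.5% of the vehicle and 15.79% of the arsenite genes. The 12 were Rxfp1, Scg2, Eif2ak3 and Tceal9, which were higher, and Atf4, Aldh1l2, Slc1a4, Slc38a3, Rps19bp1, Egln3, Gpc4 and Ndnf, which were lower. The arsenite count was 1 without ATF4-deficient arsenite replicate 2, 5 without replicate 1, and 36, 37 and 43 without wildtype arsenite replicates 2, 3 and 4. Atf4 differed by −2.08, Slc1a4 by −1.45, Aldh1l2 by −1.41, Eif2ak3 by 0.75 and Tceal9 by 0.79 under arsenite, larger sizes than under vehicle, and these were the only 5 of the 96 genes for which that was so with the same sign. The activity-induced transcription factors were near 0 there: Fos differed by −0.11, Npas4 by −0.10, Nr4a1 by 0.11 and Nr4a2 by 0.13, and Bdnf by 0.06. Scg2 kept 0.97 (adjusted p 0.0178) and Rxfp1 0.67 (adjusted p 0.0481), while Pcsk1 had 0.47 (adjusted p 0.285). The test of the difference between treatments called 0 genes (1330 of all genes, 5.996%, at an unadjusted p under 0.05), and its lowest adjusted p among the 96 was 0.340, a value shared by 10 of them: Rxfp1, Npas4, Adcyap1, Nr4a1, Slc40a1, Lgr5, Kitl and Olfr221, which were higher under vehicle, and Cacna1i and Kcnn2, which were lower. At an unadjusted p under 0.05 it held 72 of the 96 genes, 35 higher and 37 lower, but these genes were chosen on the vehicle values that enter this test. A difference between the vehicle and the arsenite readings was not shown for any of them after adjustment.

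**Figure D5:**
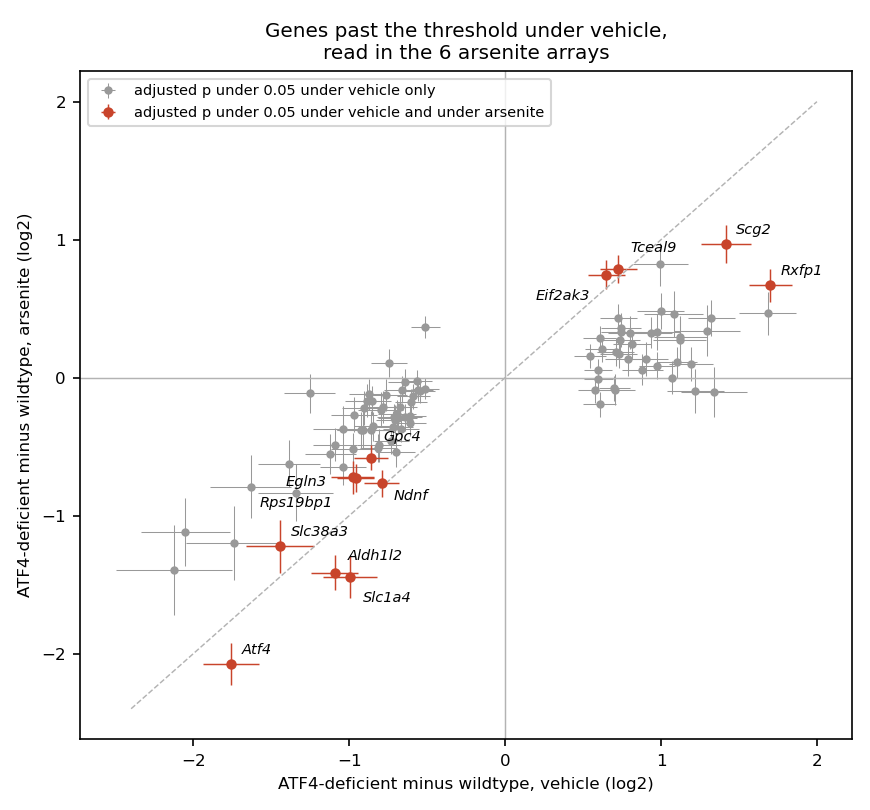
Genotype difference (log2, ± SE) under vehicle on the x axis and under arsenite on the y axis for the 96 genes past the threshold under vehicle; red points with names also passed under arsenite, and the dashed line marks equal differences. Grey points on the right side lie mostly between 0 and 0.5 on the y axis, while Atf4 (−1.76, −2.08), Aldh1l2 (−1.09, −1.41) and Slc1a4 (−0.99, −1.45) lie below the dashed line.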

How the data were processed

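Total RNA was extracted with Trizol and 100 ng was labelled with the Affymetrix WT PLUS reagents, per the labels' protocols. The authors deposited log2 expression values normalized across arrays by robust multiarray average (RMA) in Partek 6.6, per the submitters' processing notes; RMA equalizes the arrays' distributions, which would remove a shift shared by most genes. Array design build and scan dates are not given in the sources used here. Of 41345 probe sets, 23521 had exactly 1 gene symbol in the platform annotation, 1814 several and 16010 none; for 1082 genes with several probe sets the brightest was kept, leaving 22180 genes, with no filter on dim signal. Of the probe sets with 1 symbol, 23328 matched the GRCm38.p6 table by Entrez identifier. No column of samples was left unused.

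In limma 3.58.1 (R 4.3.3), 4 group means were estimated from the 10 arrays together, because 2 arrays a side give little information on spread. The model had 6 residual degrees of freedom and 5.08 prior ones. Tests were two-sided, with Benjamini-Hochberg adjustment and a threshold of 0.05. Differences are ATF4-deficient minus wildtype, and fold is 2 to the power of that. The number of arrays limits the precision. The script was tested on simulated data. Values by array were given for the 15 largest rises and 15 largest falls past the threshold, leaving out clone, model and olfactory receptor names; list members, Atf4 and its neighbours were named besides. The comparison, the 38 gene lists and the motifs were chosen with earlier results of these data known, and groupings outside the lists were made after the values were seen, so list counts and medians are descriptions. Alternatives covered dim genes, probe set averaging, normalization, weights, prior, arrays in the fit, replicate numbers and the Xist level, which was added after seeing the data.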

Additional observations from a re-analysis of the deposited data

How the results depend on the processing

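Counts of genes past the threshold under vehicle (96, of which 40 higher and 56 lower) moved with most settings. All 96 genes kept their sign in every setting in which they were tested, and 0 named genes changed direction. In the settings that only left out arrays or genes the sign was fixed in advance, because the vehicle arrays of the 96 do not overlap. Filtering dim genes gave 190 (59 higher, 131 lower) by the mean level and 204 (68, 136) by 2 of 4 vehicle arrays. Array weights gave 228 (86, 142), an intensity trend with a robust prior 144 (57, 87), the Xist level as a covariate, chosen after seeing the data, 247 (75, 172), and an adjusted p of 0.10 gave 269 (102, 167). Averaged probe sets gave 86, equal array medians 100 and repeated quantile normalization 114, in which 51.8% were higher against 41.7% as reported. With only the 4 vehicle arrays 0 genes passed in either direction. With all 41345 probe sets tested 1 passed (1 higher, 0 lower), 3431 had an unadjusted p under 0.05, and the 96 genes had adjusted p up to 0.207. Leaving out 1 array gave 0 to 99 genes (0 to 42 higher, 0 to 57 lower), with 1775 and 1687 at an unadjusted p under 0.05 in the fits without wildtype replicate 2 and without ATF4-deficient replicate 2, which gave 0.

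The difference of Atf4 was −1.76 to −1.71 in the settings that kept every vehicle array, with an adjusted p of 0.199 on the 4 vehicle arrays alone (−1.76), and −1.997 to −1.52 with 1 array left out. The count under arsenite (76) was 40 with array weights, 329 with the Xist covariate and 1 to 64 with 1 array left out. Of 798 recomputed list medians 86 moved by more than the replicate spread, and 25 of the 38 lists kept their sign in every setting. No gene passed the test of the difference between treatments in any setting.

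The genotypes share replicate numbers. Across genes, the difference between replicates 1 and 2 correlated at −0.056 between ATF4-deficient and wildtype vehicle arrays, so the numbers were not taken to pair arrays across genotypes. That value cannot tell whether the numbers pair vehicle with arsenite arrays within a genotype, which was not tested. By number, Xist under vehicle and arsenite was 11.75 and 12.26, and 6.26 and 6.70, in ATF4-deficient neurons. In wildtype it was 7.88 and 8.09 for replicate 1 but 11.89 and 6.95 for replicate 2. With the replicate number as a block, 165 genes passed in the 10 arrays (56 higher, 109 lower, 82 shared with the 96) and 0 in the 4 vehicle arrays (0 higher, 0 lower, 2814 at an unadjusted p under 0.05), where Atf4 had −1.76 with an adjusted p of 0.0653. The count under arsenite was 4 with the block in the 10 arrays. Under vehicle, Slc1a4, Gfap and Cacna1i did not pass in that fit (adjusted p 0.0560, 0.0672 and 0.0669). The design limits what can be seen, with 2 arrays a side.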

Other observations

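Regulators of G protein signalling held further positive values beside Rgs5. Rgs4, which limits Gq and Gi signalling in cortical neurons, read 9.94 and 9.82 in wildtype and 10.62 and 10.94 in ATF4-deficient vehicle arrays (0.91, adjusted p 0.0577). Rgs13 read 6.11 and 6.36 against 6.87 and 7.23 (0.82, adjusted p 0.0948), and Rgs2 had an adjusted p of 0.0570. Rgs6 lay on the other side, with 8.56 and 8.74 against 8.04 and 7.77 (−0.74, adjusted p 0.126). Of the 20 measured regulators 1 passed, against 0.433% of all genes, and their median was 0.06.

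No marker of the oligodendrocyte lineage, microglia, endothelium or inhibitory neurons passed the threshold, which 0.433% of all genes did. The ATF4-deficient arrays lay above the wildtype arrays for 2 of 10 oligodendrocyte lineage markers and below for 5. These counts were 6 and 1 for 12 microglia and macrophage markers and 2 and 1 for 8 endothelial markers, against 21.15% and 21.35% of all genes. In the oligodendrocyte lineage, Olig1 read 8.37 and 8.94 against 7.64 and 7.29 (−1.19, adjusted p 0.0880), Olig2 differed by −0.84 (adjusted p 0.125) and the precursor marker Pdgfra by −0.76 (adjusted p 0.0715), while the 7 other members differed by −0.16 to 0.17. Microglia and macrophage markers had a median of 0.09 and endothelial markers one of 0.06. Inhibitory neuron markers had a median of −0.30, from Calb2 at −0.80 (adjusted p 0.372) to Gad2 at 0.15 (adjusted p 0.813), and the median was −0.10 without ATF4-deficient replicate 2.

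Targets of NRF2, the regulator of antioxidant genes, had a median of −0.24 with 0 of 19 past the threshold, against 0.433% of all genes. The 19 included Slc7a11, Me1 (−0.64, adjusted p 0.159) and Gclc (−0.28, adjusted p 0.492). ATF4-deficient arrays lay below wildtype arrays for 12 of the 19 and above for 0, against 21.35% and 21.15% of all genes. Autophagy and lysosome genes had a median of −0.19 with 0 of 18 past the threshold (median −0.08 without ATF4-deficient replicate 2, −0.12 without wildtype replicate 1). For 13 of the 18 the ATF4-deficient arrays lay below wildtype and for 1 above. Genes of cholesterol and fatty acid synthesis (16), the nuclear-encoded respiratory chain (22) and heat shock proteins (14) had medians of −0.002, −0.03 and −0.01 and 0 genes past the threshold. ATF4-deficient arrays lay below wildtype for 2, 4 and 2 of these genes and above for 1, 2 and 5. Of the 17824 probe sets with no or several symbols, 0 passed when all probe sets were tested.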
